A study of Oncorhynchus mykiss with 9 samples.

Results

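Erythropoietin is the hormone that drives the making of red blood cells, and 8 of the 42127 genes in the deposited expression table carried its name or that of its receptor. They were found by gene symbol (epo, epoa, epob or epor, in upper or lower case) or by a product name that began with erythropoietin. By product name, 4 of the 8 were erythropoietin genes, 2 were erythropoietin receptor genes, and 2 had an epor symbol beside a product name of thrombopoietin receptor. Averaged over all libraries, 3 of the 8 genes reached 1 FPKM (fragments scaled to transcript length and to the library's mapped total), and the other 5 lay below it.

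Transcripts were sequenced from livers of wild-type rainbow trout (Oncorhynchus mykiss), a cold-water salmonid. There were 3 libraries each from trout under acute hypoxia, trout under moderate hypoxia and control trout. The series describes 12 h of hypoxia, in wording that may refer to the acute treatment alone or to both. Labels of both hypoxia groups carry the number 12, without a unit. The sources used here do not give age, sex, strain, the oxygen levels or whether each library was a separate fish. The p-values therefore measure only the spread between libraries, which may be technical.

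In vertebrates erythropoietin binds its receptor on red cell precursors. The receptor has no kinase of its own and signals through the bound kinase JAK2, which activates STAT5, while SOCS proteins and the adaptor SH2B3 damp the signal. Transcription of the hormone gene is raised by hypoxia-inducible factors, which prolyl hydroxylases of the EGLN family mark for destruction while oxygen is plentiful. The mammalian liver makes the hormone before birth and the kidney after it. In teleost fish the head kidney is the main blood-forming organ, and circulating red cells keep their nucleus and so contribute RNA to any organ that holds blood.

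Sequencing depth was judged from the commonest ratio of low FPKM values between control replicate 1 and each library. This takes that ratio to come from genes with equal read counts, which was not checked. Depth so judged was 1.10 to 1.29 times that of control replicate 1 in acute hypoxia, 0.965 to 1.10 times in moderate hypoxia and 0.947 to 1.18 times in control. Read totals are unknown, so no counting interval can be given for a value. The liver label held: the summed FPKM of 9 genes on the hepatocyte list, which holds among others transferrin, fibrinogen beta and transthyretin, was 16792 to 18701 in acute hypoxia, 16289 to 17142 in moderate hypoxia and 17548 to 20245 in control. Symbol matching left the albumin genes out of that sum and took in the gene of tissue factor. All moderate libraries lay below all controls in it. Of its 8 tested genes, limma called 2 lower in moderate hypoxia than in control (5.02% of all tested genes) and 0 with quantile scaling. In acute against moderate hypoxia 3 were called higher (4.3% of all tested genes), and 1 higher and 1 lower with quantile scaling. In acute hypoxia against control 0 were called, and 1 lower with quantile scaling. With the FPKM as deposited, the median gene of the 13803 tested was 0.21 lower on the log2 scale in acute than in moderate hypoxia and 0.15 higher in moderate hypoxia than in control, so changes are also given relative to that median. The median of acute hypoxia against control was −0.05.

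The leading erythropoietin gene was higher in both kinds of hypoxia than in control, and higher in acute than in moderate hypoxia. This gene, epo (ncbi_110531655, product name erythropoietin a), measured 2.56, 3.35 and 3.46 FPKM in the acute hypoxia libraries, 1.36, 1.41 and 1.15 FPKM in the moderate hypoxia libraries, and 0.357, 0.401 and 0.378 FPKM in the control libraries. The lowest acute library lay above the highest moderate one, and the lowest moderate library above the highest control, so that no groups overlapped. Of the 13803 tested genes, 11.1% lay without overlap higher in acute hypoxia than in control, 35.6% higher in moderate hypoxia than in control and 6.85% higher in acute than in moderate hypoxia. Means were 3.12 ± 0.492 FPKM in acute hypoxia, 1.31 ± 0.140 FPKM in moderate hypoxia and 0.379 ± 0.0220 FPKM in control (SD, n = 3 each).

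As ratios of mean FPKM, epo (ncbi_110531655) was 8.25 times as high in acute hypoxia as in control, 3.45 times as high in moderate hypoxia as in control, and 2.39 times as high in acute as in moderate hypoxia. Fold changes were fitted on log2(FPKM + 0.5), a scale that understates the change of a gene this low. On that scale epo (ncbi_110531655) rose by 2.03 ± 0.13 (SE, 95% interval 1.75 to 2.32) in acute hypoxia against control, with a Benjamini-Hochberg adjusted p of 9.72e-06 in limma. Of the 13803 genes tested, 3.08% were called higher in that comparison, and epo was the 10th highest by fold change. Testing required a mean of 1 FPKM over all libraries, which epo reached through its hypoxia libraries. Without that requirement the limma adjusted p was 0.000198, and no rank is given.

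For epo (ncbi_110531655) in moderate hypoxia against control the fitted rise was 1.04 ± 0.13 (SE, 95% interval 0.75 to 1.32; limma adjusted p = 0.000424), or 0.88 relative to the median gene. In that comparison 24.3% of tested genes were called higher with the deposited FPKM and 13.3% with median-of-ratios scaling, and epo ranked 273rd from the highest. Between the hypoxia groups, acute against moderate, the rise was 0.998 ± 0.13 (SE, 95% interval 0.71 to 1.28; limma adjusted p = 0.000452), or 1.20 relative to the median gene. Here 4.3% of genes were called higher as deposited and 11.8% with median-of-ratios scaling, and epo ranked 118th. The gene reached the mean of 1 FPKM required for testing through its hypoxia libraries, since all control libraries were below it. With no such requirement the limma adjusted p was 0.000198 for acute hypoxia against control, 0.00226 for moderate hypoxia against control and 0.00248 for acute against moderate hypoxia.

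In the authors' deposited table the log2 fold change of epo (ncbi_110531655) was 3.05 for acute hypoxia over control (FDR 5.77e-21), 1.79 for moderate hypoxia over control (FDR 0.00181) and 1.26 for acute over moderate hypoxia (FDR 1.61e-08).

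**Figure D1:**
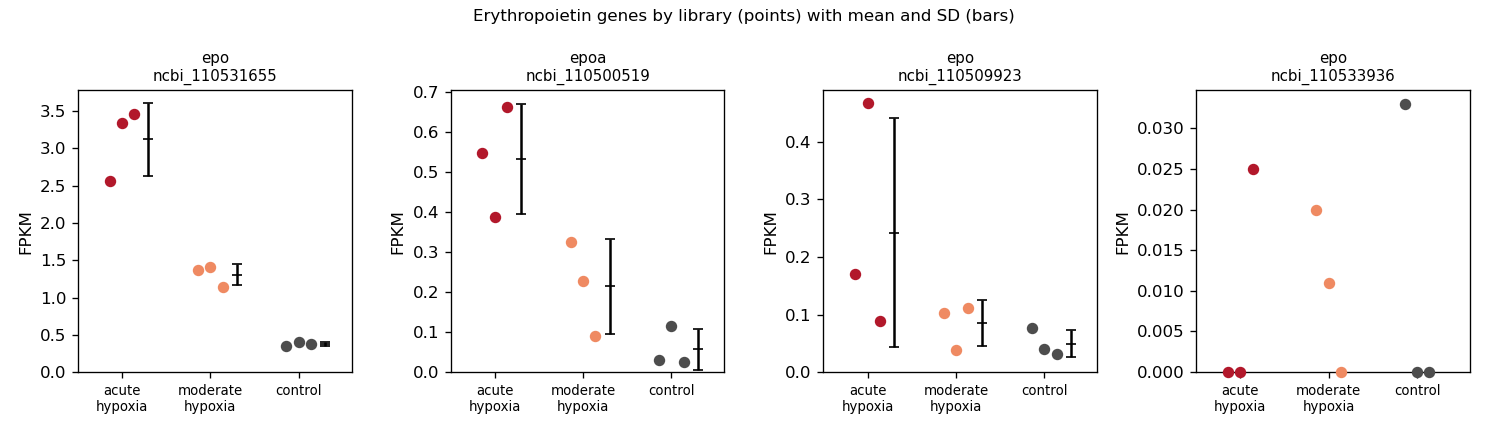
FPKM of the 4 erythropoietin genes in each of the 9 libraries, with acute hypoxia at the left, moderate hypoxia in the middle and control at the right; points are libraries and bars the group mean ± SD, left out for ncbi_110533936, which is listed at 0 in several libraries. For the leading gene, ncbi_110531655, the acute libraries lie between 2.56 and 3.46 FPKM, the moderate ones between 1.15 and 1.41 and the controls between 0.357 and 0.401.

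A second gene with the same product name, epoa (ncbi_110500519), was expressed at lower levels. It measured 0.548, 0.388 and 0.662 FPKM in acute hypoxia, 0.325, 0.228 and 0.089 FPKM in moderate hypoxia, and 0.030, 0.116 and 0.025 FPKM in control. All acute libraries lay above all moderate ones, as in 4.81% of all 35536 genes with a value above 0, and above all control ones, as in 7.19% of them, while moderate replicate 3 fell below control replicate 2. Since these genes share a product name, reads of closely alike copies may have been divided between them, and the sources used here do not say how the counting treated such reads.

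The mean FPKM of epoa (ncbi_110500519) was 9.35 times as high in acute hypoxia as in control, 3.75 times as high in moderate hypoxia as in control and 2.49 times as high in acute as in moderate hypoxia. Because its mean lay below 1 FPKM it was read from the fit of all 35536 genes without a minimum, in which 0.836% of genes were called higher in acute hypoxia than in control and 1.55% higher in acute than in moderate hypoxia. There the fitted difference of epoa between acute hypoxia and control was 0.89 ± 0.14 (SE; limma adjusted p = 0.0192), and between acute and moderate hypoxia 0.54 ± 0.14 (SE; limma adjusted p = 0.0408). Between moderate hypoxia and control epoa differed by 0.35 ± 0.14 (SE; limma adjusted p = 0.159), which missed the threshold.

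Both calls of epoa lay near the threshold and were lost when certain single libraries were left out. With single libraries left out the fitted difference stayed between 0.80 and 0.99 in acute hypoxia against control. In acute against moderate hypoxia it stayed between 0.41 and 0.65. The call of acute hypoxia against control was lost without acute replicate 1 (limma adjusted p = 0.089), acute replicate 3 (0.0772), moderate replicate 2 (0.0511), control replicate 1 (0.11), control replicate 2 (0.0591) or control replicate 3 (0.0846), and in a fit of the 2 groups alone (0.0569). The call of acute against moderate hypoxia was lost without acute replicate 1 (limma adjusted p = 0.117) or 3 (0.124), moderate replicate 2 (0.0852) or 3 (0.111), or control replicate 1 (0.0713), 2 (0.0568) or 3 (0.0687), in a fit of those groups alone (0.11), and with a pseudocount of 0.1 (0.0771). In the authors' deposited table epoa had a log2 fold change of 3.22 for acute hypoxia over control (FDR 0.00264), 1.91 for moderate hypoxia over control (FDR 0.446) and 1.32 for acute over moderate hypoxia (FDR 0.0817).

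The remaining erythropoietin genes were near the lower end of the scale. The gene named erythropoietin-like (ncbi_110509923) measured 0.171, 0.467 and 0.088 FPKM in acute hypoxia, 0.103, 0.039 and 0.112 FPKM in moderate hypoxia, and 0.076, 0.040 and 0.032 FPKM in control. Its acute libraries all lay above the controls, as in 7.19% of all 35536 genes with a value above 0, but acute replicate 3 fell below moderate replicates 1 and 3. The fitted difference was 0.40 for acute hypoxia against control (limma adjusted p = 0.289), 0.09 for moderate hypoxia against control (0.771) and 0.31 for acute against moderate hypoxia (0.222), so none passed the threshold. The gene named erythropoietin (ncbi_110533936) was listed at 0, 0 and 0.025 FPKM in acute hypoxia, at 0.020, 0.011 and 0 FPKM in moderate hypoxia, and at 0.033, 0 and 0 FPKM in control.

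Summed over all 4 erythropoietin genes, FPKM came to 3.28, 4.20 and 4.24 in acute hypoxia, 1.81, 1.68 and 1.35 in moderate hypoxia, and 0.496, 0.557 and 0.435 in control. The leading gene made up 78.1% to 81.7% of the sum in acute hypoxia, 75.3% to 85.1% in moderate hypoxia and 72.0% to 86.9% in control. The groups overlapped in this share, while the sums themselves did not overlap between any of the groups. In bulk tissue, fewer cells of a type and less RNA per cell cannot be told apart.

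Summed FPKM was also taken for marker lists of other cell types. The summed FPKM of the 14 matched kidney tubule genes was 10.6 to 13.5 in acute hypoxia, 22.3 to 38.5 in moderate hypoxia and 10.4 to 13.2 in control. That sum was higher in moderate hypoxia than in the other groups. Of the 14 genes on the list, 6 were above 0 in every library and 2 were at 0 in every library. Of the 3 of its genes tested, the 2 called higher in moderate hypoxia than in control were UMOD, the urinary protein uromodulin, and a gene with the symbol Cubn whose product name is another one, ovochymase-2. In that comparison 24.3% of all tested genes were called higher as deposited and 13.3% with median-of-ratios scaling. UMOD at 18.3, 19.3 and 7.25 FPKM and Cubn at 13.2, 9.83 and 13.45 FPKM made up most of the kidney tubule sum in moderate hypoxia. The sum therefore does not stand for the list as a whole. The 20 matched genes of stellate cells and fibroblasts summed to 87.0 to 137 FPKM in acute hypoxia, 107 to 142 in moderate hypoxia and 72.6 to 92.6 in control, with overlap between acute hypoxia and control. The 12 matched endothelial genes summed to 15.0 to 15.8 FPKM in acute hypoxia, 17.7 to 21.7 in moderate hypoxia and 15.0 to 15.7 in control, and the 5 matched macrophage genes to 24.3 to 32.7 FPKM in acute hypoxia, 28.4 to 36.5 in moderate hypoxia and 34.02 to 42.2 in control. The part of these cell types in the epo values was not tested.

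**Figure D2:**
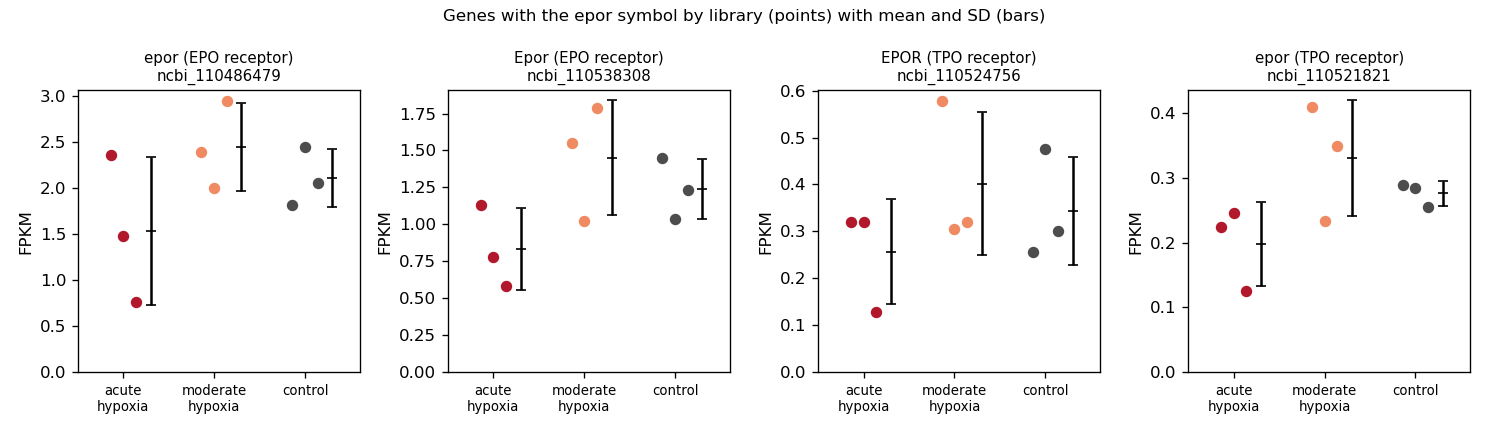
FPKM of the 4 genes with an epor symbol in each of the 9 libraries, with acute hypoxia at the left, moderate hypoxia in the middle and control at the right; points are libraries and bars the group mean ± SD. The groups overlap for the 2 receptor genes (ncbi_110486479 and ncbi_110538308), and the spread over the acute libraries of ncbi_110486479, 0.757 to 2.36 FPKM, takes in most of the control range.

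Neither receptor gene passed the test in either kind of hypoxia against control. The receptor gene epor (ncbi_110486479) measured 2.36, 1.48 and 0.757 FPKM in acute hypoxia, 2.39, 1.999 and 2.95 FPKM in moderate hypoxia, and 1.82, 2.44 and 2.06 FPKM in control. All groups overlapped, and the acute libraries were spread the widest, at 1.53 ± 0.801 FPKM in acute hypoxia, 2.44 ± 0.476 FPKM in moderate hypoxia and 2.103 ± 0.314 FPKM in control (SD, n = 3 each). On the log2 scale epor (ncbi_110486479) differed by −0.43 (95% interval −0.98 to 0.12; limma adjusted p = 0.336) in acute hypoxia against control and by 0.17 (−0.38 to 0.72; adjusted p = 0.636) in moderate hypoxia against control. These intervals leave room for a change of either sign.

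In acute against moderate hypoxia, epor (ncbi_110486479) differed by −0.60 (95% interval −1.15 to −0.06; limma adjusted p = 0.085), or −0.40 relative to the median gene, and missed the threshold. Without acute replicate 1 the difference was −0.89 and the limma adjusted p 0.0136.

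The second receptor gene, Epor (ncbi_110538308), measured 1.13, 0.776 and 0.585 FPKM in acute hypoxia, 1.55, 1.02 and 1.79 FPKM in moderate hypoxia, and 1.45, 1.04 and 1.24 FPKM in control. Its groups overlapped as well, acute replicate 1 lying above moderate replicate 2 and above control replicate 2. Mean levels were 0.831 ± 0.277 FPKM in acute hypoxia, 1.45 ± 0.390 FPKM in moderate hypoxia and 1.24 ± 0.204 FPKM in control (SD, n = 3 each). The log2 difference of Epor was −0.40 (95% interval −0.82 to 0.02; limma adjusted p = 0.239) in acute hypoxia against control and 0.15 (−0.26 to 0.57; adjusted p = 0.578) in moderate hypoxia against control.

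Between the hypoxia groups, acute against moderate, Epor (ncbi_110538308) fell by 0.55 (SE 0.19; limma adjusted p = 0.0448). In this comparison 28.1% of all tested genes were called lower with the deposited FPKM, and 11.9% with median-of-ratios scaling. Relative to the median gene the difference was −0.35. The call was lost with median-of-ratios scaling (limma adjusted p = 0.158), quantile scaling (0.231), no minimum on the mean (0.101) and the 2 groups alone (0.0692), and without acute replicate 2 (0.105), acute replicate 3 (0.143), moderate replicate 1 (0.126), moderate replicate 3 (0.141), control replicate 1 (0.0558) or control replicate 3 (0.0576). In the authors' deposited table none of the 4 genes with an epor symbol had an FDR under 0.05, with Epor (ncbi_110538308) at a log2 fold change of −0.58 for acute hypoxia over control (FDR 0.485) and −0.81 for acute over moderate hypoxia (FDR 0.361).

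For the genes with an epor symbol and a thrombopoietin receptor product, symbol and product name disagree, and the files do not say which holds. EPOR (ncbi_110524756) measured 0.321, 0.321 and 0.128 FPKM in acute hypoxia, 0.578, 0.306 and 0.321 FPKM in moderate hypoxia, and 0.256, 0.475 and 0.3 FPKM in control, with all groups overlapping. The other, epor (ncbi_110521821), measured 0.224, 0.246 and 0.125 FPKM in acute hypoxia, 0.410, 0.234 and 0.350 FPKM in moderate hypoxia, and 0.290, 0.284 and 0.255 FPKM in control. Its acute libraries lay below the controls without overlap, as did 11.1% of all 35536 genes. Without the minimum on the mean neither gene was called in any comparison, with limma adjusted p between 0.154 and 0.776.

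Since FPKM is scaled by transcript length, hormone and receptor levels can be set side by side. The 2 receptor genes summed to 3.49, 2.25 and 1.34 FPKM in acute hypoxia, 3.93, 3.02 and 4.73 FPKM in moderate hypoxia, and 3.26, 3.48 and 3.29 FPKM in control. In acute replicates 2 and 3 the summed erythropoietin genes exceeded the summed receptor genes, while in acute replicate 1 and in every moderate and control library they lay below them.

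**Figure D3:**
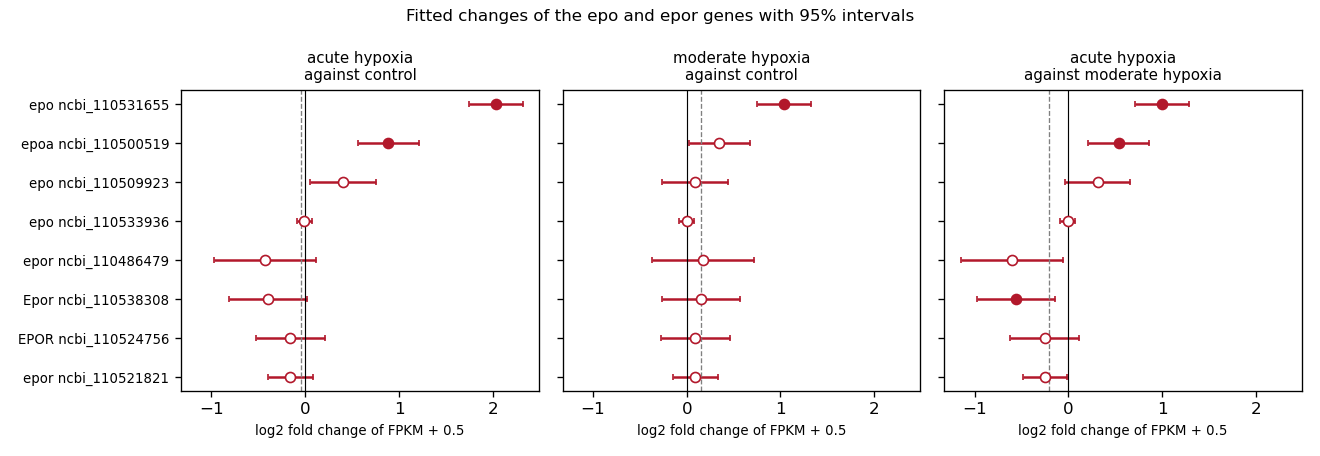
Fitted log2 differences of the 8 genes on log2(FPKM + 0.5) with 95% intervals, 1 panel each for acute hypoxia against control, moderate hypoxia against control and acute against moderate hypoxia. Filled points passed an adjusted p of 0.05 in limma, and the dashed line is the median of the 13803 genes; epo (ncbi_110531655) is filled in all panels at 2.03, 1.04 and 0.998.

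Genes of red cells were also followed over the libraries. The summed FPKM of the 31 matched red cell genes, which hold hemoglobin, alas2, band 3 anion exchanger and spectrin genes, was 684, 414 and 419 in acute hypoxia, 613, 417 and 684 in moderate hypoxia, and 584, 681 and 595 in control. The range of 414 to 684 in acute hypoxia overlapped that of moderate hypoxia and that of control. Of the 31 genes, 16 were above 0 in every library and 13 were at 0 in every library, among them 11 beta globin genes and the gene with the symbol of the erythroid factor GATA1, whose product name is another GATA factor. At least 1 FPKM on average was reached by 16, and of these limma called 0 in acute hypoxia and 0 in moderate hypoxia, each against control. At an unadjusted p under 0.05, 0 were higher and 3 lower in acute hypoxia than in control, and 1 was higher and 1 lower in moderate hypoxia than in control. Of all tested genes, 7.79% were called in acute hypoxia and 29.3% in moderate hypoxia, each against control. The comparison of acute with moderate hypoxia had 1 called higher and 2 lower, where 4.3% of all genes were called higher and 28.1% lower. The lower calls there numbered 5 without acute replicate 1, 4 without moderate replicate 2 and 0 without acute replicate 3, moderate replicate 1 or moderate replicate 3, and the higher call was lost without acute replicate 1 or 2, any 1 of the moderate libraries, or control replicate 2. Against control, 1 gene was called lower in acute hypoxia without acute replicate 1, 1 higher in moderate hypoxia without acute replicate 1 or 3, moderate replicate 2 or control replicate 2, and 1 lower in moderate hypoxia without acute replicate 3. The gene alas2 (ncbi_110532218), the first enzyme of heme synthesis in red cell precursors, measured 17.2, 10.2 and 9.57 FPKM in acute hypoxia, 23.3, 12.4 and 26.4 FPKM in moderate hypoxia, and 18.0, 21.0 and 17.6 FPKM in control. Not all red cell genes ran like alas2. The hba gene ncbi_110486351, called higher in acute than in moderate hypoxia, measured 25.8, 16.3 and 8.07 FPKM in acute hypoxia. It measured 8.73, 7.21 and 4.89 FPKM in moderate hypoxia and 8.04, 14.3 and 18.5 FPKM in control. The gene hemgn (ncbi_110497349) measured 16.6, 15.4 and 19.3 FPKM in acute hypoxia, 18.4, 16.5 and 19.1 in moderate hypoxia, and 15.6, 16.8 and 14.8 in control.

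Over the 9 libraries the mean log2 level of the 16 tested red cell genes and that of epor (ncbi_110486479) had a Pearson r of 0.926 (exact permutation p = 4.41e-05, adjusted over 2 relations 8.82e-05) and a Spearman rho of 0.933 (exact permutation p = 0.00075, adjusted 0.0015). Leaving out acute replicate 3 and moderate replicate 3, the libraries farthest from the median of the red cell level, r was 0.943 over 7 libraries. For Epor (ncbi_110538308) r was 0.805 (exact permutation p = 0.00888, adjusted 0.00888) and rho 0.733 (exact permutation p = 0.0311, adjusted 0.0311). Without the same libraries r for Epor was 0.514, so that relation rested on them in part. The 16 genes came from a list, but the relation was looked for after the values had been seen. The permutations moved libraries freely across the 3 groups, so these r, rho and p values take in differences between groups. They do not show how the genes vary together within a group, which was not computed. For epo the groups form separate clusters and no pooled correlation with the red cell level is given. Acute replicates 2 and 3 and moderate replicate 2, which had the lowest summed red cell FPKM, also had the 3 lowest values of Epor and 3 of the 4 lowest values of epor (ncbi_110486479), control replicate 1 being the other. The part of blood content in the receptor differences was not tested.

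**Figure D4:**
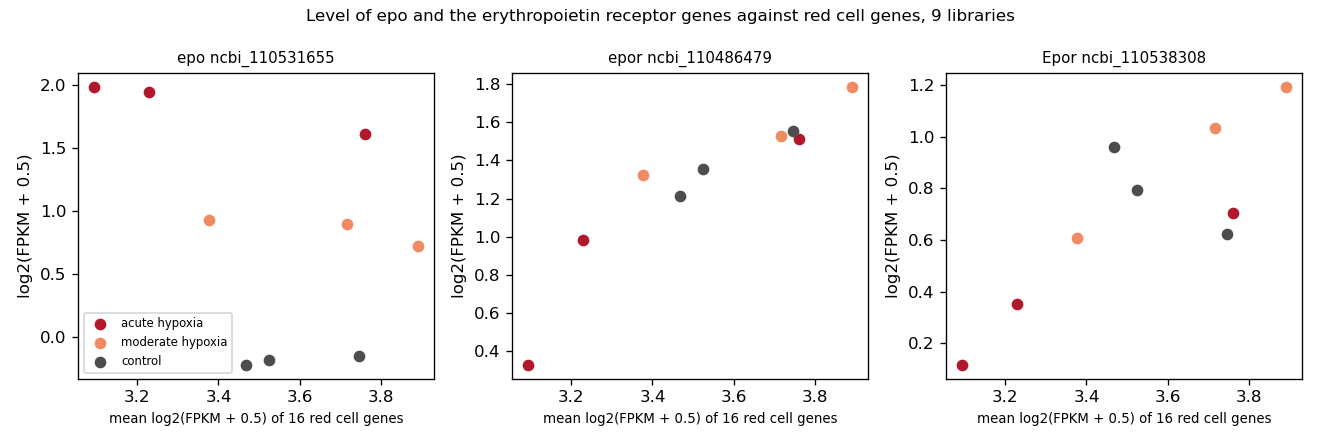
Levels of the genes averaging at least 1 FPKM, on log2(FPKM + 0.5), against the mean log2 level of 16 red cell genes, each point 1 of the 9 libraries and coloured by acute hypoxia, moderate hypoxia or control. Points for epor (ncbi_110486479) run along a rising band with r = 0.926, while those for epo (ncbi_110531655) separate by group.

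The genes by which cells read the receptor's signal were taken as a list of 81 matched genes, 50 of them tested. In acute hypoxia against control 6 were called higher and 4 lower, with a median log2 difference of 0.00 against −0.05 over all genes and 7.79% of all genes called in either direction. In moderate hypoxia against control 17 were called higher and 2 lower with the deposited FPKM, 9 and 2 with median-of-ratios scaling, with a median of 0.29 against 0.15 over all genes. In acute against moderate hypoxia 2 were called higher and 21 lower as deposited, and 4 and 6 with median-of-ratios scaling, with a median of −0.33 against −0.21 over all genes. Of all genes, 3.08% were called higher and 4.71% lower in acute hypoxia against control. In moderate hypoxia against control 24.3% were called higher and 5.02% lower as deposited, and 13.3% and 12.5% with median-of-ratios scaling. In acute against moderate hypoxia 4.3% were called higher and 28.1% lower as deposited, and 11.8% and 11.9% with median-of-ratios scaling. Genes called in either direction as deposited came to 29.3% in moderate hypoxia against control and 32.4% in acute against moderate hypoxia.

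Several of these counts hung on single libraries. In acute hypoxia against control the higher calls numbered 3 without acute replicate 1 or without any 1 of the control libraries, and the lower calls 2 without control replicate 1. In moderate hypoxia against control the higher calls numbered 10 without moderate replicate 1 and 11 without moderate replicate 3. The lower calls there numbered 0 without moderate replicate 1 or 2 or control replicate 2 or 3, and 1 without acute replicate 1, moderate replicate 3 or control replicate 1. In acute against moderate hypoxia the lower calls numbered 13 without acute replicate 3 and 11 without moderate replicate 1, and the higher calls 1 without moderate replicate 3.

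Of the negative regulators, socs2 (ncbi_110500152), which damps cytokine and growth hormone receptors, measured 2.52, 2.56 and 2.39 FPKM in acute hypoxia, 1.42, 1.53 and 1.19 FPKM in moderate hypoxia, and 0.557, 0.453 and 1.14 FPKM in control. The acute libraries lay above all controls, as in 11.1% of the 13803 tested genes. The gene rose by 1.34 on the log2 scale in acute hypoxia against control (limma adjusted p = 0.00143). It reached the mean of 1 FPKM required for testing through its hypoxia libraries, control replicates 1 and 2 lying below that level. Socs3 (ncbi_110502743), another such suppressor, measured 3.66, 3.56 and 3.77 FPKM in moderate hypoxia, against 1.66, 2.36 and 1.82 FPKM in control, and rose by 0.78 (limma adjusted p = 0.00206). It also rose by 0.61 with median-of-ratios scaling (adjusted p = 0.00644). The adaptor sh2b3 (ncbi_110525097), a brake on JAK2, measured 1.001, 0.944 and 0.827 FPKM in acute hypoxia, 1.75, 1.63 and 2.38 FPKM in moderate hypoxia, and 0.850, 0.876 and 0.635 FPKM in control. It rose by 0.90 in moderate hypoxia against control (limma adjusted p = 0.00137; 0.76 with median-of-ratios scaling), and was 0.75 lower in acute than in moderate hypoxia (log2 difference −0.75; limma adjusted p = 0.00321). The required mean of 1 FPKM was reached by sh2b3 through its moderate libraries, since all controls and acute replicates 2 and 3 lay below it.

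Of the carriers of the signal, STAT5B (ncbi_110538192), a transcription factor that JAK2 activates, measured 5.75, 5.62 and 4.70 FPKM in acute hypoxia, 8.08, 7.12 and 8.27 FPKM in moderate hypoxia, and 4.81, 4.82 and 4.49 FPKM in control. The moderate libraries lay above all controls, as in 35.6% of the 13803 tested genes. STAT5B (ncbi_110538192) rose by 0.67 in moderate hypoxia against control (limma adjusted p = 0.00133; 0.50 with median-of-ratios scaling). The gene pik3r1 (ncbi_110523476), a regulatory subunit of phosphoinositide 3-kinase, measured 5.34, 6.53 and 4.95 FPKM in acute hypoxia, 5.23, 4.80 and 4.15 FPKM in moderate hypoxia, and 2.45, 2.001 and 2.52 FPKM in control. Its acute libraries lay above all controls, as in 11.1% of the 13803 tested genes, and so did its moderate ones, as in 35.6%. The gene pik3r1 rose by 1.11 in acute hypoxia (limma adjusted p = 0.000585) and by 0.89 in moderate hypoxia (limma adjusted p = 0.000959, and 0.72 with median-of-ratios scaling), each against control. A second gene of that name, PIK3R1 (ncbi_110509692), measured 15.2, 13.4 and 16.9 FPKM in acute hypoxia, 8.04, 8.42 and 8.96 in moderate hypoxia, and 7.97, 6.11 and 10.7 in control. It rose by 0.87 in acute hypoxia against control (limma adjusted p = 0.0108), while its moderate and control libraries overlapped.

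BCL2L1 (ncbi_110492635), the gene of a survival protein that the receptor induces in red cell precursors of mammals, was lower in acute hypoxia. It measured 7.40, 7.31 and 8.10 FPKM in acute hypoxia, 15.3, 12.0 and 14.7 FPKM in moderate hypoxia, and 12.4, 16.0 and 13.6 FPKM in control. Its acute libraries lay below all controls, as in 11.1% of all 35536 genes with a value above 0. The like share among the 13803 tested genes, to which BCL2L1 belongs, is not given. Of those tested genes 4.71% were called lower in acute hypoxia than in control. BCL2L1 fell by 0.83 on the log2 scale against control (limma adjusted p = 0.00244) and by 0.83 against moderate hypoxia (limma adjusted p = 0.000823, and −0.60 with median-of-ratios scaling). The gene irs2a (ncbi_110528824), an adaptor of insulin signalling, measured 1.28, 0.675 and 1.64 FPKM in acute hypoxia, 2.63, 3.11 and 3.47 FPKM in moderate hypoxia, and 2.73, 2.58 and 2.84 FPKM in control, and fell by 0.96 in acute hypoxia against control (limma adjusted p = 0.0119).

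Upstream of the hormone, the oxygen-sensing list had 48 matched genes, 34 of them tested. In acute hypoxia against control 7 were called higher and 0 lower, with a median log2 difference of 0.06 against −0.05 over all genes, of which 3.08% were called higher and 4.71% lower. At an unadjusted p under 0.05 in limma 9 were higher and 2 lower, and after adjustment 1 was called lower without acute replicate 3, moderate replicate 1 or moderate replicate 3. In moderate hypoxia against control 15 were called higher as deposited and 12 with median-of-ratios scaling, none was called lower in limma (0 also at an unadjusted p under 0.05), and the median was 0.32 against 0.15 over all genes. Of all genes, 24.3% were called higher there as deposited and 13.3% with median-of-ratios scaling. Set against moderate hypoxia, acute hypoxia had 7 called higher and 11 lower as deposited, and 7 and 8 with median-of-ratios scaling, with a median of −0.22 against −0.21 over all genes. All genes were called higher in 4.3% and lower in 28.1% of cases as deposited, and in 11.8% and 11.9% with median-of-ratios scaling, so the lower calls as deposited were near the share over all genes.

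The smallest p on this list in acute hypoxia against control was that of fih1 (ncbi_101268916), an oxygen-dependent hydroxylase that restrains hypoxia-inducible factors. It measured 31.7, 35.7 and 30.4 FPKM in acute hypoxia, 8.69, 6.41 and 6.65 FPKM in moderate hypoxia, and 2.09, 2.02 and 2.13 FPKM in control. The groups did not overlap. Of the 13803 tested genes, 11.1% lay without overlap higher in acute hypoxia than in control and 35.6% higher in moderate hypoxia than in control. The share higher in acute than in moderate hypoxia was 6.85%. The gene fih1 rose by 3.68 in acute hypoxia against control (limma adjusted p = 9.27e-08) and by 1.57 in moderate hypoxia against control (limma adjusted p = 4.91e-05, and 1.40 with median-of-ratios scaling). Egln3 (ncbi_110505778), a prolyl hydroxylase, measured 2.68, 2.26 and 2.70 FPKM in acute hypoxia, 1.06, 1.19 and 0.776 FPKM in moderate hypoxia, and 0.282, 0.213 and 0.239 FPKM in control. Its log2 rise was 2.03 in acute hypoxia (limma adjusted p = 1.37e-05) and 1.01 in moderate hypoxia (limma adjusted p = 0.000602; 0.90 with median-of-ratios scaling), each against control. A second Egln3 gene (ncbi_110497687) measured 2.64, 2.78 and 3.49 FPKM in acute hypoxia, 0.610, 0.647 and 1.01 FPKM in moderate hypoxia, and 0.602, 0.440 and 0.529 FPKM in control, and rose by 1.76 in acute hypoxia against control (limma adjusted p = 8.02e-05). All control libraries of both Egln3 genes lay below the mean of 1 FPKM required for testing. Both genes reached it through hypoxia libraries, the second mainly through the acute ones, and their p-values without that minimum are not given.

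The hepatic transcription factor gene hnf4a (ncbi_110532634), whose mammalian product binds the erythropoietin enhancer, measured 35.1, 35.1 and 43.0 FPKM in acute hypoxia, 28.3, 26.0 and 23.9 FPKM in moderate hypoxia, and 20.0, 17.0 and 21.6 FPKM in control. It rose by 0.93 in acute hypoxia against control (limma adjusted p = 0.00108). Other members were highest in moderate hypoxia. The coactivator gene EP300 (ncbi_110498762) measured 0.847, 0.932 and 1.20 FPKM in acute hypoxia, 2.82, 2.57 and 3.21 FPKM in moderate hypoxia, and 1.12, 1.36 and 0.922 FPKM in control. The gene arnt2 (ncbi_110506172), a dimer partner of hypoxia-inducible factors, measured 10.7, 12.1 and 11.2 FPKM in acute hypoxia, 25.2, 21.4 and 16.9 FPKM in moderate hypoxia, and 10.7, 9.99 and 12.1 FPKM in control. EP300 (ncbi_110498762) was higher by 1.05 and arnt2 by 0.91 in moderate hypoxia than in control (limma adjusted p = 0.000592 for EP300 and 0.00107 for arnt2). With median-of-ratios scaling the rise was 0.89 for EP300 and 0.72 for arnt2.

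Of the relatives of the receptor, 30 cytokine receptor genes were matched and 13 tested. In acute hypoxia against control 0 were called higher and 1 lower, in moderate hypoxia against control 1 higher and 0 lower, and in acute against moderate hypoxia 0 higher and 3 lower, all in limma. Over all genes the shares called higher and lower were 3.08% and 4.71% in acute hypoxia against control, 24.3% and 5.02% in moderate hypoxia against control, and 4.3% and 28.1% in acute against moderate hypoxia, so the relatives were called higher in moderate hypoxia, and lower in acute against moderate hypoxia, no more often than genes at large. At an unadjusted p under 0.05 the counts were 5 higher and 1 lower, 6 higher and 0 lower, and 0 higher and 4 lower in the same order of comparisons. With median-of-ratios scaling 1 was higher and 1 lower in acute hypoxia against control, 0 higher and 1 lower in moderate hypoxia against control, and 1 higher and 0 lower in acute against moderate hypoxia. The 3 lower calls as deposited in acute against moderate hypoxia numbered 0 without acute replicate 1, acute replicate 3 or moderate replicate 1 and 1 without moderate replicate 2 or 3. The single lower call in acute hypoxia against control was lost without control replicate 1, and the single higher call in moderate hypoxia numbered 0 without moderate replicate 1 or 3, 2 without acute replicate 1 or 3 and 3 without acute replicate 2.

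Of 25 matched genes of erythroid growth and iron supply, 16 were tested. In acute hypoxia against control 1 was called higher and 1 lower, in moderate hypoxia against control 4 higher and 2 lower, and in acute against moderate hypoxia 1 higher and 4 lower. With median-of-ratios scaling these were 2 and 1, 1 and 2, and 2 and 2. The higher calls in moderate hypoxia as deposited were near the 24.3% of all genes called higher there, and the lower calls in acute against moderate hypoxia near the 28.1% of all genes called lower. Of all genes, 3.08% were called higher and 4.71% lower in acute hypoxia against control, 5.02% lower in moderate hypoxia against control, and 4.3% higher in acute against moderate hypoxia. In acute hypoxia against control the higher call was lost without acute replicate 1 or 2 or any 1 of the controls, and 2 were lower without acute replicate 3 or control replicate 3. In moderate hypoxia against control the higher calls numbered 2 without any 1 of the moderate libraries and 1 without control replicate 1, and the lower calls 1 without moderate replicate 1 or 3 or control replicate 1 or 3. In acute against moderate hypoxia the higher call was lost without acute replicate 2 or 3 or moderate replicate 1 or 2. The transferrin receptor gene tfr1a (ncbi_110509090), which takes up iron, measured 25.2, 23.9 and 35.9 FPKM in acute hypoxia, 39.1, 40.5 and 32.5 FPKM in moderate hypoxia, and 56.0, 47.8 and 62.6 FPKM in control, and fell by 0.97 in acute hypoxia against control (limma adjusted p = 0.00473). In moderate hypoxia against control tfr1a was also called lower, at −0.56 (limma adjusted p = 0.0232, and −0.75 with median-of-ratios scaling). With single libraries left out that adjusted p reached 0.0791. Its relative TFRC (ncbi_100653457) measured 1.33, 1.12 and 1.62 FPKM in acute hypoxia, 3.97, 2.47 and 3.51 FPKM in moderate hypoxia, and 1.46, 1.26 and 1.13 FPKM in control, and rose by 1.08 in moderate hypoxia against control (limma adjusted p = 0.00107; 0.92 with median-of-ratios scaling). The gene thpo (ncbi_110508802), which encodes the ligand of the thrombopoietin receptor, measured 2.52, 3.32 and 3.45 FPKM in acute hypoxia, 2.07, 2.02 and 2.13 FPKM in moderate hypoxia, and 2.93, 3.13 and 3.97 FPKM in control. It fell by 0.57 in moderate hypoxia against control (limma adjusted p = 0.0101; −0.73 with median-of-ratios scaling).

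Among 13128 named and tested genes, those most like epo (ncbi_110531655) in their level over the 9 libraries were KCNC4 (Pearson r 0.994), whose product name is another potassium channel subunit, the protein translocation gene SEC62 (0.986), fih1 (0.985), Egln3 (ncbi_110505778, 0.985) and the hydroxylase gene jmjd6 (0.983). The libraries of epo fall into separate clusters by group, so these values take in the differences between groups and do not show how genes vary together within a group. KCNC4 (ncbi_110528089) measured 20.4, 26.6 and 23.2 FPKM in acute hypoxia, 11.01, 11.6 and 8.91 FPKM in moderate hypoxia, and 4.30, 4.01 and 4.89 FPKM in control. Most like epor (ncbi_110486479) were the interferon pathway gene irf9 (0.968), the chromatin gene DEK (0.957), RELL2 (0.944), whose product name is a histone methyltransferase, SEMA7A (0.942) and cops2 (0.939). Most like Epor (ncbi_110538308) were Clcn5 (0.962), CTDSP2 (0.946), pgam5 (0.930), Trim16 (0.928), whose product name is stonustoxin-like, and Ank1 (ncbi_110525713, 0.927), the ankyrin of the red cell membrane and a member of the red cell list. None of the genes named for a receptor was among those named for epo. With only 5 of 13128 genes named for each, lists this short cannot show whether hormone and receptor behave differently.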

How the data were processed

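RNA sequencing of trout livers gave 9 libraries, 3 each for acute hypoxia, moderate hypoxia and control, grouped by the sample labels. The authors deposited FPKM for each gene in each library, with their own log2 fold changes, p-values and FDR beside them, per the file headers. The submitters' processing notes name TopHat2 2.1.1 and Bowtie2 2.2.8. The sources used here do not name the genome build, the counter or the authors' test. The deposited file stacks a table for each pair of groups. Acute hypoxia was read from the table it shares with moderate hypoxia, and the other groups from the table they share. Moderate hypoxia values are the same in both (largest difference 0). Acute hypoxia and control thus came from different tables. In the table they share, values of acute replicate 1 were 1.0062 times as high at the median of well expressed genes. With the acute and control values of that table epo (ncbi_110531655) rose by 2.04 against control (limma adjusted p = 7.58e-06). For epoa (ncbi_110500519) the rise was 0.89 in the fit without a minimum (limma adjusted p = 0.0183).

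The 13803 genes that averaged 1 FPKM or more were fitted as log2(FPKM + 0.5) by limma 3.58.1 under R 4.3.3, using eBayes with a mean trend, the 3 groups in 1 model and no covariate. A gene was called where its p, adjusted by Benjamini and Hochberg over the whole fit, was under 0.05, and genes below the minimum were read from the same fit of all 35536 genes above 0. Exact two-sided permutation tests of single genes cannot go below p = 0.1 with 3 libraries against 3, and were computed with scipy 1.17.1. Changes relative to the median gene subtract the median log2 difference of the 13803 genes, and the p beside them belongs to the change before that subtraction. Acute and moderate hypoxia were compared with the same controls.

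All genes found by the name rule are described. From each list the text names genes among the 6 with the smallest p of those called in a comparison, and for each gene averaging at least 1 FPKM the 5 named genes most like it. The genes alas2 and hemgn and the hba gene were chosen after their values were seen. The members and lists were chosen with earlier results of these data known. The fit was also run on simulated data with independent normal noise for each gene, the outcome of which is not given. That run applied no minimum on the mean and no shift between groups, so it does not test either. An annotation table of the species (assembly USDA_OmykA_1.1) matched all 8 genes and gave names only. It held an epo or epor symbol for 2 of them, epoa (ncbi_110500519) and epor (ncbi_110486479). The others, the leading epo gene among them, had only a locus number there. No sequences or coordinates are reported here.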

Additional observations from a re-analysis of the deposited data

Results flagged for a closer look

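The response of the leading erythropoietin gene, epo (ncbi_110531655), differed between the kinds of hypoxia. Its level was 0.998 higher on the log2 scale in acute than in moderate hypoxia (limma adjusted p = 0.000452, and 0.00248 without a minimum on the mean). It was higher in each of the 3 acute libraries than in any moderate library, as in 6.85% of the 13803 tested genes.

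The response of epoa (ncbi_110500519) also differed, with a level 0.54 higher in acute than in moderate hypoxia in the fit without a minimum on the mean (limma adjusted p = 0.0408). All 3 acute libraries lay above all moderate ones, as in 4.81% of all 35536 genes with a value above 0. The call was lost without acute replicate 1 or 3, moderate replicate 2 or 3, or any 1 of the control libraries (highest limma adjusted p 0.124).

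For Epor (ncbi_110538308) the log2 difference of acute against moderate hypoxia was −0.55 (limma adjusted p = 0.0448), with acute replicate 1 above moderate replicate 2. With median-of-ratios scaling the difference was −0.38 and the limma adjusted p 0.158.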

How the results depend on the processing

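The call and direction of epo (ncbi_110531655) held in all comparisons under every alternative that gave a value, with its log2 rise in acute hypoxia against control between 1.57 (pseudocount of 1) and 2.74 (pseudocount of 0.1). Of the 3 tested epo and epor genes, 2 were called in acute against moderate hypoxia. That number was 1 with no minimum on the mean, median-of-ratios scaling, quantile scaling or the 2 groups alone, and 1 to 3 with single libraries left out. With quantile scaling the log2 difference of moderate hypoxia against control turned to −0.0248 for epor (ncbi_110486479) and to −0.0578 for Epor (ncbi_110538308), neither called; the cause was not tested. Genes called in acute hypoxia against control numbered 1075, but 700 with no minimum and 571 with a minimum of 5 FPKM, and 462 (without control replicate 1) to 1085 with single libraries left out, with 588 without acute replicate 2 and 662 without control replicate 2. In moderate hypoxia against control they numbered 4041, but 1257 with the minimum of 5 FPKM, and 2623 (without control replicate 1) to 4029. In acute against moderate hypoxia they numbered 4477, but 1443 with that minimum and 2943 with quantile scaling, and 3004 to 4435 with single libraries left out. The minimum of 5 FPKM keeps fewer genes and drops all epo and epor genes.

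Libraries with the same replicate number did not deviate together (correlations of −0.131 to 0.0806 over 9 pairs, 0 of them over 0.1), so the numbers were not taken as a pairing. With a replicate block the genes called numbered 794, 3557 and 3984 for acute hypoxia and for moderate hypoxia against control and for the hypoxia groups against each other, and epoa lost its calls (limma adjusted p = 0.0628 in acute hypoxia against control and 0.0797 in acute against moderate hypoxia), while the calls of the 3 tested genes were the same. A planned count of promoter motifs was not run. FPKM without read totals limits what low levels such as those of 3 of the erythropoietin genes can show. Scaling alternatives for the lists, and the relation to red cell genes, were chosen after seeing the data.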
